A study of Mus musculus with 27 samples.

Results

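Livers of mice fed an atherogenic diet were compared with livers of mice fed a Western diet, which is also high in fat and sucrose but holds less cholesterol and no cholic acid. The tested members are the 6112 genes, of 18194 gene symbols on the array, with a probe whose mean on either diet lay above log2(100), called the detection level. They were measured on 6 of the 27 arrays of a study of 9 diets, n = 3 mice per diet and 1 array per mouse. All mice were male C57BL/6, labelled 10 weeks old, without a transgene, and ate their diet for 3 weeks. Liver was taken in the morning without fasting. The atherogenic group carries the label Atherogenic Rodent and the Western group the label Adjusted Calories. Because the atherogenic feed combined extra cholesterol with cholic acid and held slightly less sucrose, the effects of these ingredients cannot be told apart. The AIN-93 purified diet, the control of the study, is given beside some values as a further level. Values are log2 intensities, and differences are given as a percent of the Western value with a 95% confidence interval (CI) and with p from limma adjusted over all genes tested.

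Dietary cholesterol reaches the liver and is sensed there by the nuclear receptor LXR, which switches on sterol export, and by the SREBP2 system, which shuts off sterol synthesis. Cholic acid, a bile acid, is sensed by the receptor FXR (Nr1h4), which is known to repress bile acid synthesis and to increase bile salt export. The liver also holds resident macrophages, the Kupffer cells, which take up particles and lipid from blood and present antigen, and hepatocytes that secrete acute phase proteins when the liver receives inflammatory signals.

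On the atherogenic diet, 726 genes (11.9% of those tested) were higher and 425 (6.95%) were lower, and 189 of the higher and 69 of the lower genes differed by more than 2-fold. Of the 5640 genes detected on both diets, 546 (9.68%) were higher and 391 (6.93%) were lower, and the remaining 180 higher and 34 lower calls came from genes detected on the atherogenic or on the Western diet alone. Among the 15 largest increases, with values below the detection level raised to it, were Saa3, Saa2, Gstm3, Orm2, Lyz1 and Cd5l, and Cyp8b1, Mup10, Fitm1 and Tsc22d1 were the 4 largest decreases. The median difference over all genes was 0.05 on the log2 scale. Centring the arrays on their medians turned the split into 559 higher and 640 lower, and a second quantile normalization gave 593 and 650, so the excess of higher over lower calls depended on the scaling, while no called gene changed sign under either. In a fit of these 6 arrays alone, 314 genes were higher and 151 lower. Without Western replicate 3, 482 were higher and 269 lower, and 543 genes (356 higher, 187 lower) were called whichever of the 6 arrays was left out.

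**Figure D1:**
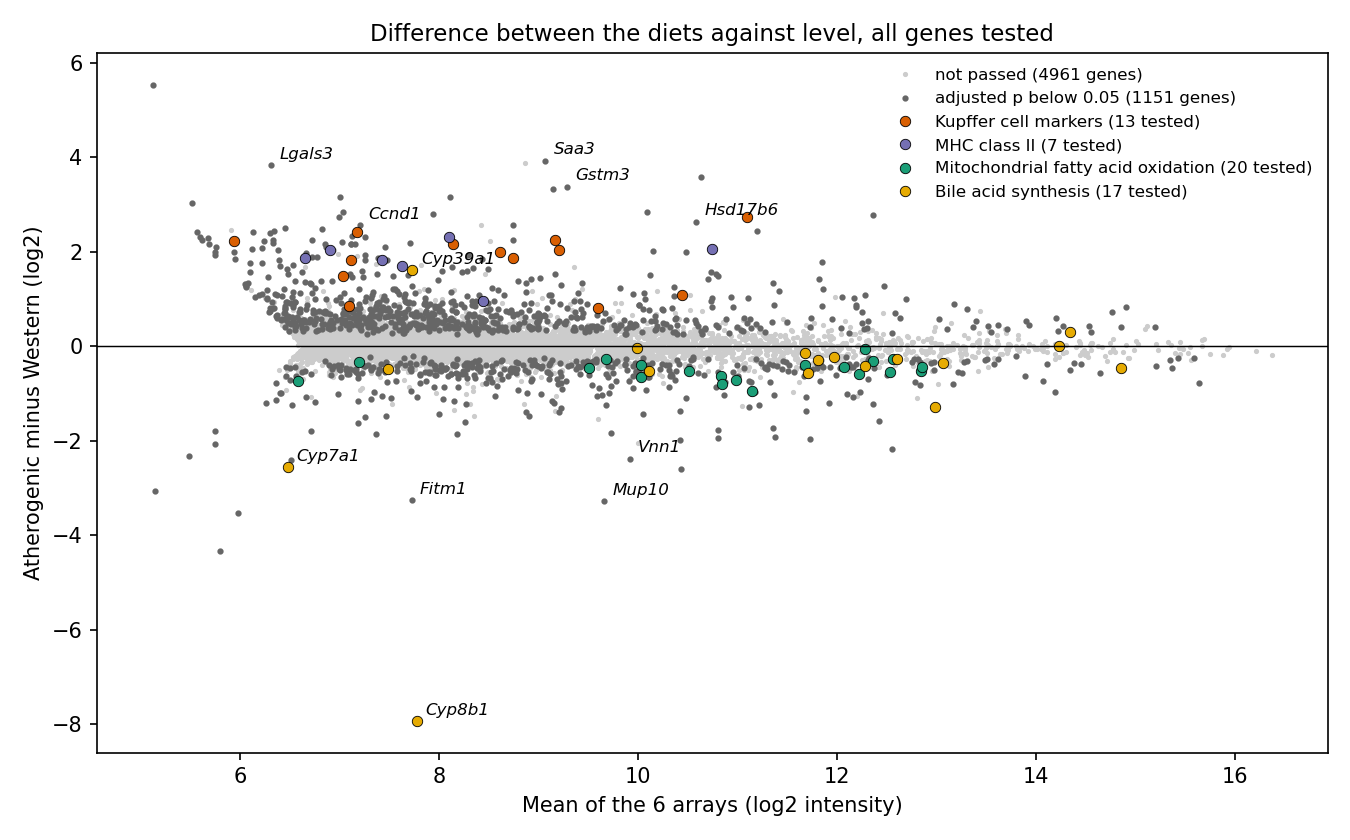
Each point is 1 of the 6112 genes tested, with the mean of the 6 arrays (log2 intensity) on the x axis and the atherogenic minus Western difference (log2) on the y axis. Dark points passed the test, and colours mark 4 gene lists. Kupffer cell and MHC class II genes lie above 0, and all 20 genes of mitochondrial fatty acid oxidation lie below it. Cyp8b1 lies lowest of all.

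Among the 3 atherogenic livers, replicate 2 stood apart. Its Euclidean distance over the genes tested was 35.7 and 36.9 from the other atherogenic arrays, which lay 25.2 from each other. The Western arrays lay 26.1 to 32.0 apart. Between the diets, distances ran from 34.7 (atherogenic replicate 3 to Western replicate 1) to 56.8. Atherogenic replicate 3 thus lay nearer to that Western array than to atherogenic replicate 2. Hepatocyte markers were at full level in all livers, with albumin at 16.17, 16.19 and 16.13 on the atherogenic and 16.12, 16.32 and 16.38 on the Western diet. The defining T cell marker Cd3e stayed near the lowest value of the array, at 2.29, in all 3 atherogenic livers, and between 2.29 and 2.74 in Western livers. Values of bulk liver do not tell more cells of a type from more RNA per cell.

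Of 17 tested genes of bile acid synthesis, 7 were lower and 1 was higher, and of the 15 detected on both diets 5 were lower. The fit of the 6 arrays alone called 3 lower. Cyp8b1, the sterol 12-alpha-hydroxylase that is required to make cholic acid, had the largest difference of any gene tested. It read 4.40, 2.51 and 4.54 in atherogenic livers, against 11.30, 11.84 and 12.07 in Western livers. No atherogenic liver reached the detection level, so the transcript was at least 34.2-fold lower (adjusted p = 2.5e-11). The 7 other diets of the study, control included, had Cyp8b1 means between 9.37 and 12.45, all above the detection level.

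Cyp7a1, the rate-limiting enzyme of the classic pathway, read 5.93, 6.08 and 3.61 in atherogenic livers and 9.09, 7.79 and 6.41 in Western livers. It was at least 2.17-fold lower (adjusted p = 0.033), with 1 Western liver also below the detection level. The groups did not overlap, but the spread was wide and the call was lost without atherogenic replicate 3 (adjusted p = 0.16), Western replicate 1 (0.14) or Western replicate 2 (0.077). Cyp7b1 and Cyp27a1, enzymes of the alternative pathway, were 41.1% (CI 28.8 to 58.7, adjusted p = 9.9e-04) and 67.4% (CI 55.0 to 82.8, adjusted p = 0.0073) of the Western value. Akr1d1, the 5-beta-reductase of bile acid synthesis, was 69.6% of it (adjusted p = 0.0050), and its brightest probe alone was not called (71.8%, adjusted p = 0.071).

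Cyp39a1, an oxysterol 7-alpha-hydroxylase, moved the other way. It read 8.61, 8.19 and 8.81 in atherogenic livers against 7.12, 7.16 and 6.51 in Western livers, or 304% (CI 217 to 425, adjusted p = 6.3e-05). It was the 1 member of the list that rose, and the control mean of 7.78 lay between the diets.

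Among bile salt carriers the export pump rose and most called uptake carriers fell. Abcb11, the bile salt export pump of the canalicular membrane, read 12.88, 12.73 and 12.85 in atherogenic livers, against 11.79, 11.86 and 11.59 in Western livers, which is 211% (CI 180 to 247, adjusted p = 1.2e-06). Slc10a1, the sodium-dependent bile salt uptake carrier, was 50.9% (CI 40.2 to 64.5, adjusted p = 2.9e-04), with 11.93, 11.32 and 11.99 in atherogenic livers and 12.74, 12.83 and 12.58 in Western livers. Slco1a1 was 37.1% (adjusted p = 0.0017) and Slco1b2 48.6% (adjusted p = 0.0029), although the brightest probe of Slco1b2 alone gave 75.4% (adjusted p = 0.20). Slco1a4 was the uptake carrier that rose, at 6.23, 7.99 and 7.97 against 5.91, 4.83 and 5.36, at least 1.68-fold. That call was lost without atherogenic replicate 2 (adjusted p = 0.082), atherogenic replicate 3 (0.066) or Western replicate 2 (0.074).

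Nr1h4, which encodes FXR itself, was 63.7% of the Western value (adjusted p = 0.041), but not called without atherogenic replicate 2 (74.9%, adjusted p = 0.24), Western replicate 1 (adjusted p = 0.15) or Western replicate 2 (0.081). Nr0b2, the repressor SHP that FXR induces, overlapped between the diets. Its values were 10.50, 10.62 and 11.26 in atherogenic and 10.46, 9.87 and 10.90 in Western livers, with 130% of the Western value (CI 75.3 to 225, adjusted p = 0.53). Of the 16 members of the sensing and transport list that were tested, 2 were higher and 4 lower, with 1 higher without atherogenic replicate 2, atherogenic replicate 3 or Western replicate 2, and 3 without Western replicate 1. In the fit of the 6 arrays alone 1 was higher and 2 were lower. Over all genes tested 11.9% were higher and 6.95% lower, so the higher count of the list was near the general share.

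FXR binds inverted repeats of the hexamer AGGTCA with 1 base between them, so the RefSeq promoters (250 bases before to 50 after each start, build GRCm38.p6) of the bile acid and sterol genes were searched on both strands for GGTCANTGACC. None of the 34 members with a promoter entry held it, and 0.0481% of all 27025 genes did. With 1 base freed, as GGNCANTGACC, a form chosen after that result, 2 of the 34 held a match, against 0.266% of all genes. The 2 stretches are shown because the genes moved in opposite directions, Abcb11 up and Slco1b2 down. Capitals mark the match, which lies 62 to 52 bases before the start of Abcb11 (chr2:69342644-69342702, minus strand) and 87 to 77 bases before that of Slco1b2 (chr6:141629407-141629465, plus strand). A match of letters is not a binding site, and these arrays did not measure binding.
Abcb11: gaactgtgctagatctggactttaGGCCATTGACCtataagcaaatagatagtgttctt
Slco1b2: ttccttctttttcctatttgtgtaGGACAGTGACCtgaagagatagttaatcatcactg

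**Figure D2:**
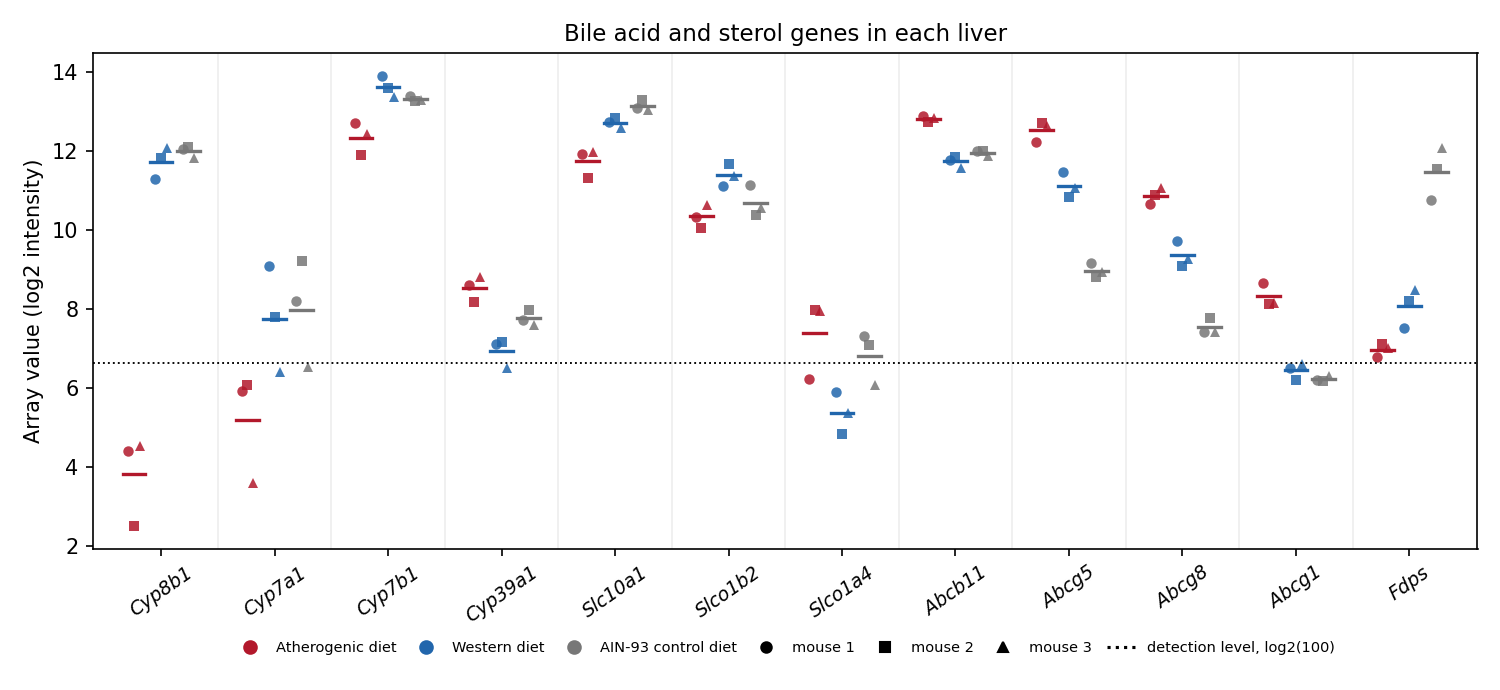
Log2 intensity of 12 bile acid and sterol genes in each liver, with atherogenic (red), Western (blue) and AIN-93 control (grey) mice from left to right, short bars for means and a dotted line at the detection level. Cyp8b1 lay between 2.51 and 4.54 in atherogenic livers and above 11 in the others, and Abcg5 and Abcg8 rose in steps over control, Western and atherogenic livers.

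Of 14 tested members of the list of sterol efflux, storage and LXR targets, 5 were higher and none was lower, and the count stayed at 5 whichever array was left out. Abcg5 and Abcg8 form the pair that secretes sterols into bile. Abcg5 read 12.24, 12.73 and 12.63 in atherogenic livers, 11.47, 10.83 and 11.06 in Western livers and 8.97 on average in control livers. It was 266% of the Western value (CI 181 to 390, adjusted p = 8.0e-04), and Abcg8 was 285% (CI 194 to 418, adjusted p = 4.2e-04). The Western diet already stood above control for both genes, and the atherogenic livers stood higher still.

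Abcg1, which moves cholesterol from cells to HDL, was detected on the atherogenic diet only, at 8.67, 8.14 and 8.16 against 6.51, 6.21 and 6.61, at least 3.20-fold higher (adjusted p = 1.2e-07). Scarb1, the HDL receptor, was 226% (CI 173 to 294, adjusted p = 1.4e-04). Npc2, a lysosomal cholesterol carrier, was 172% (CI 141 to 210, adjusted p = 4.9e-04). Abca1, another LXR target, was high on both diets, at 12.66, 12.74 and 12.64 in atherogenic livers and 12.76, 12.53 and 12.53 in Western livers. Its difference was small (105%, CI 90.9 to 122, adjusted p = 0.65), so the interval leaves out the size of change seen in Abcg5.

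Cholesterol synthesis was already low on the Western diet and lower on the atherogenic diet for 4 of 13 tested members, with none higher. Fdps, which makes farnesyl diphosphate, read 6.78, 7.11 and 7.02 in atherogenic livers, 7.51, 8.20 and 8.49 in Western livers and 11.47 on average in control livers, or 46.8% of the Western value (adjusted p = 0.025). Tm7sf2, a sterol reductase of the pathway, was 48.3% (CI 35.9 to 65.1, adjusted p = 0.0012) and kept its call without any 1 array. The sterol desaturase gene Sc5d was 64.5% (adjusted p = 0.043) and was not called when any of the 6 arrays was left out (0.053 to 0.15). Msmo1, a sterol oxidase, was 66.3% (adjusted p = 0.049), and Msmo1 and Fdps were both lost without atherogenic replicate 1, Western replicate 2 or Western replicate 3. Without atherogenic replicate 1, Western replicate 2 or Western replicate 3, 1 member was called, and without atherogenic replicate 2 it was 2. For all 4 called members the control mean lay above the Western mean. The list of SREBP2 control and LDL uptake had 2 of 9 tested members higher, Mbtps2 (152%) and Lrp1 (156%), and 1 lower, Scap (73.3%). None of the 3 remained called without atherogenic replicate 3 or Western replicate 3.

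Genes of fatty acid synthesis were called higher at a share near that of all genes tested (11.9%). Of 19 tested, 2 were higher and none was lower, and the list median of the 18 detected on both diets was 96.4% of the Western value, against 102% for all genes detected on both diets. Elovl1, an elongase of long saturated fatty acids, was 187% (CI 142 to 244, adjusted p = 0.0019), and the desaturase Scd2 was at least 1.18-fold higher (adjusted p = 0.015), a call lost without atherogenic replicate 1, Western replicate 2 or Western replicate 3 (0.088, 0.071 and 0.051). Fasn, the fatty acid synthase, spread widely over 10.06, 12.32 and 10.68 in atherogenic livers and 10.66, 9.23 and 10.93 in Western livers. The spread covered both diets (168%, CI 62.7 to 447, adjusted p = 0.48). Scd1, the main liver desaturase, was 118% (CI 77.5 to 180, adjusted p = 0.61).

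Of 21 tested genes of triglyceride synthesis and lipid droplets 5 were lower and 1 was higher, and of the 19 detected on both diets 4 were lower. The fit of the 6 arrays alone called 3 lower. Fitm1 and Fitm2, which promote droplet formation, were both lower. Fitm1 read 6.32, 5.25 and 6.70 in atherogenic livers, with a mean below the detection level, against 8.50, 9.14 and 10.43 in Western livers, a fitted 10.4% (CI 4.99 to 21.7, adjusted p = 1.4e-04). Fitm2 was 47.8% (CI 35.2 to 64.7, adjusted p = 0.0012). G0s2, an inhibitor of the lipase Pnpla2, was 26.6% (adjusted p = 0.021), and the droplet coat gene Plin2 was 58.8% (adjusted p = 0.026). Plin3, another coat gene, rose to 162% (CI 123 to 213, adjusted p = 0.013). Mgll was the remaining lower member, at 52.7% (adjusted p = 0.011). Western replicate 3 held the highest Fitm1, G0s2 and Plin2 values of its group, and without it 2 members were called lower, with Plin2 (72.4%, adjusted p = 0.19) and G0s2 (33.2%, adjusted p = 0.11) lost. Without atherogenic replicate 2, 3 were lower. Plin2 was also not called without atherogenic replicate 2, atherogenic replicate 3 or Western replicate 2, nor G0s2 without atherogenic replicate 1 or 2.

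Of 20 tested genes of mitochondrial fatty acid oxidation, 13 were lower and none was higher, but the fit of the 6 arrays alone called 2 lower, and 8 were called without the filter on low values. The 19 detected on both diets had a median of 72.3% of the Western value. Eci1, which isomerises unsaturated acyl chains, read 10.68, 10.46 and 10.87 in atherogenic livers and 11.35, 11.61 and 11.89 in Western livers, or 52.0% (CI 42.9 to 63.1, adjusted p = 5.5e-05). The electron carrier gene Etfdh was 57.4% (adjusted p = 9.2e-04), the carnitine carrier Slc25a20 was 61.0% (adjusted p = 0.0056), and the dehydrogenase Acadm was 68.3% (adjusted p = 0.0091). Cpt1a, the entry step, was 64.4% but did not pass (CI 44.8 to 92.8, adjusted p = 0.084). In 12 of the 13 lower members the control mean lay nearer the atherogenic than the Western mean, or below the atherogenic mean. Without atherogenic replicate 2, 6 members were lower, and without Western replicate 3, 8 were, and Acadm was lost in both (adjusted p = 0.070 and 0.058).

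Peroxisomal and omega oxidation had 8 of 21 tested members lower and none higher, with 5 lower in the fit of the 6 arrays alone. Ppara, the receptor that drives these genes, read 9.49, 9.13 and 9.90 in atherogenic livers against 10.28, 10.37 and 10.55 in Western livers, or 53.8% (CI 41.4 to 69.9, adjusted p = 0.0015). Pex11a, a peroxisome division gene, was 43.6% (adjusted p = 0.0021) and Aldh3a2, a fatty aldehyde dehydrogenase, 42.0% (adjusted p = 0.0023). Vnn1, a pantetheinase, was 19.2% (CI 7.54 to 49.0, adjusted p = 0.013), but not called without Western replicate 3 (22.8%, adjusted p = 0.063). Cyp4a14, an omega hydroxylase, was 24.2% with a wide interval (CI 5.17 to 114, adjusted p = 0.19). One atherogenic liver was near the Western level of Cyp4a14, with 7.29, 8.21 and 11.45 in atherogenic and 9.75, 11.75 and 11.58 in Western livers, and without that liver, replicate 3, the gene was called (10.3%, adjusted p = 0.037).

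**Figure D3:**
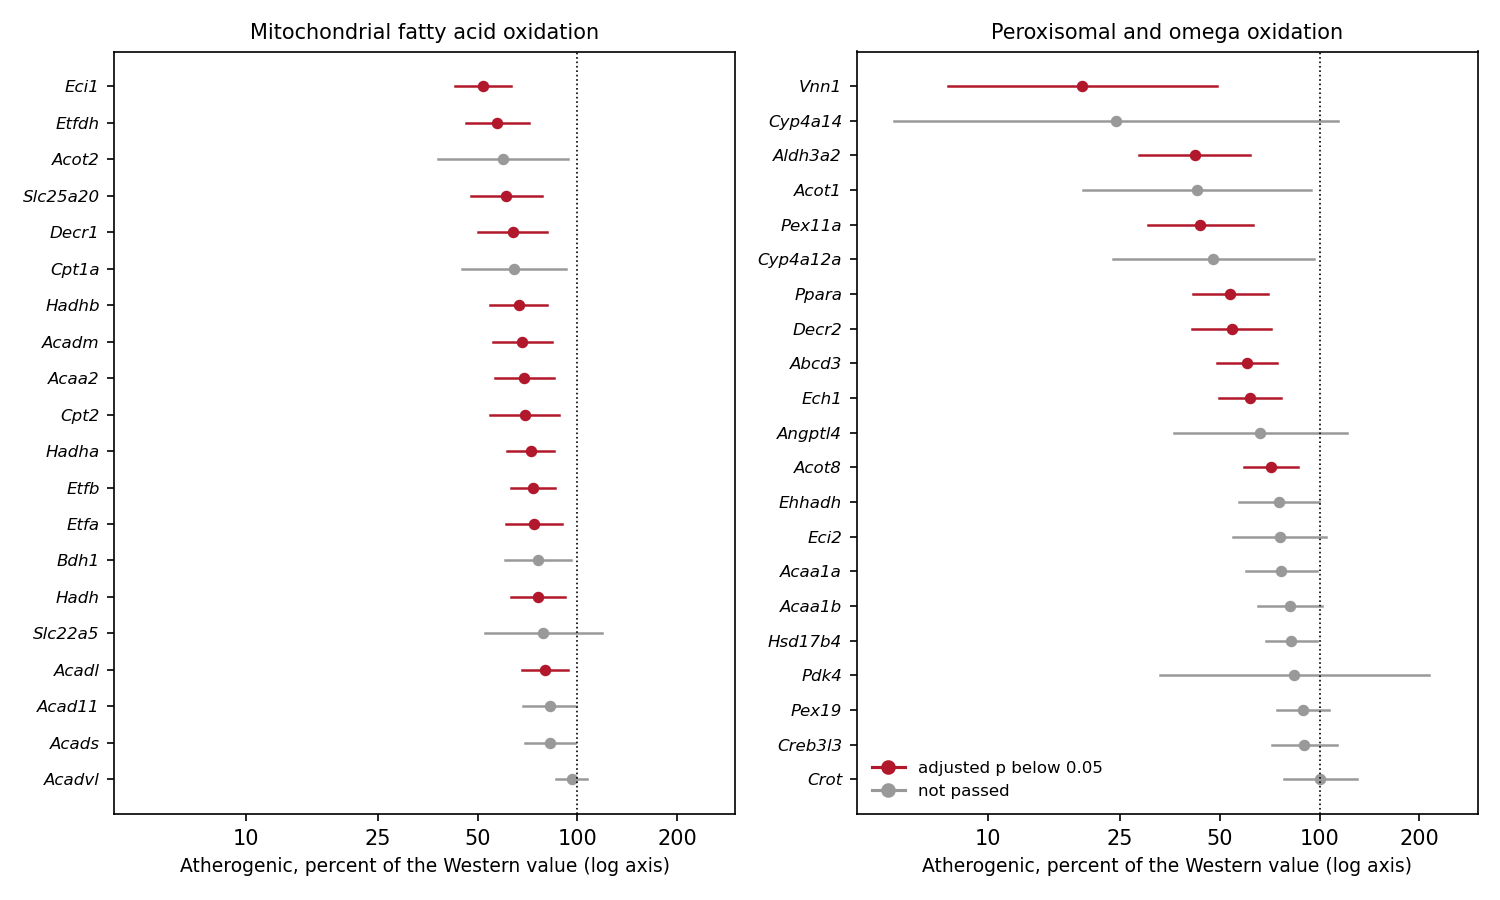
Atherogenic level as a percent of the Western value (log axis) with 95% CI for all tested members of the mitochondrial (20 genes, left) and of the peroxisomal and omega oxidation list (21 genes, right). Red members passed the test. All 20 mitochondrial members lie below 100%.

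Oxidative phosphorylation genes were lower in 21 of 71 tested members, with none higher and a list median of 88.2%, but in the fit of the 6 arrays alone 2 were lower. The 3 largest were in Ndufb3 (64.9%, CI 54.7 to 77.1, adjusted p = 9.2e-04) and Ndufs1 (69.8%, CI 61.4 to 79.2, adjusted p = 3.3e-04) of complex I and in Sdha of complex II (72.3%, adjusted p = 7.6e-04). Without atherogenic replicate 2 6 members were lower, and without Western replicate 3, 8 were. Median centring raised it to 31.

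Of 13 tested Kupffer cell markers, 12 were higher, and of 14 tested markers of activated and lipid-laden macrophages all 14 were. In the Kupffer list, 8 of 9 members detected on both diets were higher, and the other 4 calls came from members detected on the atherogenic diet alone. The Kupffer count was 10 without atherogenic replicate 1 or Western replicate 3. It was 11 without atherogenic replicate 2, Western replicate 1 or Western replicate 2. The list of activated macrophages had 24 members on the array, and without the filter 17 of these were higher. Of the 14 tested, 6 were detected on both diets, and the other 8 passed the filter through the atherogenic diet alone. Gpnmb, a defining marker of that list, was not tested. It read 3.42, 2.35 and 2.88 in atherogenic livers and 2.29 in each Western liver. The summed intensity of all 16 Kupffer markers on the array was 10226 to 18351 in atherogenic livers, 3239 to 4218 in Western livers and 4971 to 6983 in control livers. The groups did not overlap, and Western livers lay below control.

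Cd5l, a secreted macrophage protein, read 12.87, 12.68 and 11.84 in atherogenic livers and 10.05, 9.25 and 9.88 in Western livers, or 667% (CI 387 to 1150.2, adjusted p = 3.9e-05). Clec4f, a lectin found on Kupffer cells, read 9.83, 9.75 and 9.26 against 7.76, 7.36 and 7.71, or 400.4% (CI 258 to 622, adjusted p = 1.1e-04). Csf1r, the receptor for the macrophage growth factor, was 366% (adjusted p = 6.8e-04) and Vsig4, a complement receptor, 407% (adjusted p = 8.0e-04). The 3 chains of complement C1q rose too, with C1qa at 447% and C1qb at 477%.

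Lgals3, the lectin galectin 3 of activated macrophages, had the largest fitted difference of that list. It read 9.26, 7.85 and 7.58 in atherogenic livers against 4.93, 4.24 and 4.02 in Western livers and a control mean of 5.39, at least 3.00-fold higher (adjusted p = 1.1e-05). Lyz2, a macrophage lysozyme, was 595% (CI 270 to 1311, adjusted p = 0.0022), the adaptor Tyrobp was 700% with a Western mean below the detection level (CI 390 to 1255, adjusted p = 6.1e-05), and the receptor Clec7a was at least 3.51-fold higher. Lyz1 and Lyz2 are near-identical copies whose probes may share signal. Atherogenic replicate 1 had the highest Lgals3, Lyz2 and Clec7a values, and all 14 members remained called without atherogenic replicate 2. The count was 12 without Western replicate 2 or in the fit of the 6 arrays alone. It was 13 without atherogenic replicate 1, atherogenic replicate 3 or Western replicate 3.

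MHC class II and antigen presentation had all 7 tested members higher, 4 of them detected on both diets and 3 on the atherogenic diet alone. The fit of the 6 arrays alone called 3. H2-Aa, a chain of the class II molecule, read 10.63, 8.14 and 9.02 in atherogenic livers and 7.64, 6.15 and 7.05 in Western livers, or 498% (CI 235 to 1057, adjusted p = 0.0033). The invariant chain Cd74 was at least 1.93-fold higher (adjusted p = 0.0053). Ctss, the protease that trims it, was 414% (CI 248 to 691, adjusted p = 3.7e-04). Replicate 1 was highest of the atherogenic livers in all of these. H2-Ab1 and H2-Eb1 were not called without atherogenic replicate 1 (adjusted p = 0.11 and 0.10) or Western replicate 2 (0.079 and 0.065).

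**Figure D4:**
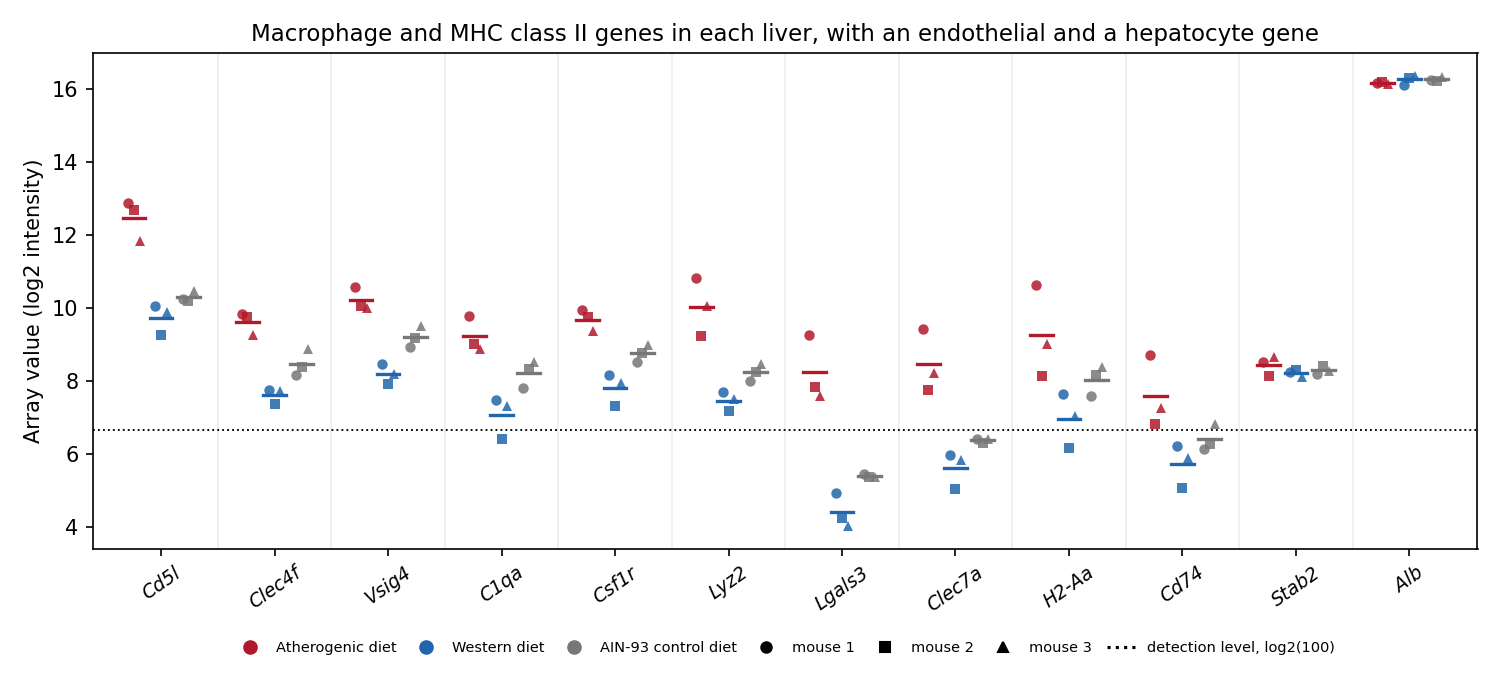
Log2 intensity of 10 macrophage and MHC class II genes, of the endothelial gene Stab2 and of albumin in each liver, atherogenic (red), Western (blue) and AIN-93 control (grey) from left to right. The 10 immune genes, all called members of their lists, lie higher in every atherogenic than in every Western liver, while Stab2 and Alb overlap. Over all genes tested, 33.9% did not overlap between the diets, in either direction.

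Markers of other cell types were checked in the same way. None of 11 tested stellate cell and matrix genes passed in limma (1 at an unadjusted p below 0.05), and the summed intensity of that list was 831 to 1711.5 in atherogenic and 1185 to 1343.5 in Western livers. Col3a1, a fibrillar collagen, was 135% (CI 73.1 to 251, adjusted p = 0.52), and it was called when arrays were weighted by quality (207%, adjusted p = 0.028). Atherogenic replicate 2 had the lowest sum of the list, and without it 2 members were higher. Of 9 endothelial genes 1, Dpp4, was called higher (128%, adjusted p = 0.045) with overlapping groups. That count is near the share over all genes tested (11.9%). Dpp4 was not called without atherogenic replicate 2 or 3, or Western replicate 1 or 3, or under either scaling. The T, NK and B cell list had no member at the detection level on either diet and sums of 57.7 to 67.4 and 58.5 to 61.5, and no cholangiocyte marker had a diet mean at that level either. Hepatocyte markers had 2 of 12 members higher, beside 11.9% of all genes tested. They were the secreted proteins Ahsg (135%) and Ambp (132%), the second not called without atherogenic replicate 2 (adjusted p = 0.055).

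Of 17 tested chemokine, adhesion and toll-like receptor genes 9 were higher, but 5 of these were detected on the atherogenic diet alone, and of the 12 detected on both diets 4 were higher. The fit of the 6 arrays alone called 5 higher. The 1 lower gene was Cxcl12 (77.3%, adjusted p = 0.045), which passed without Western replicate 3 and not without any of the 5 other arrays (0.053 to 0.21). Ccl6, a macrophage chemokine, read 9.24, 8.48 and 8.02 in atherogenic livers against 6.01, 4.66 and 5.61 in Western livers, at least 3.83-fold higher (adjusted p = 6.0e-05). The adhesion molecules Vcam1 and Icam1, which hold leukocytes to endothelium, were at least 1.89-fold and 1.13-fold higher (adjusted p = 5.0e-04 and 7.3e-04), both undetected in all Western livers. Lbp, which hands bacterial lipopolysaccharide to its receptor, was 234% (adjusted p = 0.011) and was not called without atherogenic replicate 2 (175%, adjusted p = 0.094).

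The promoter of Icam1 is shown because it carries a match to the NF-kB-type motif GGAATTTCC, on either strand, 153 to 145 bases before the start (chr9:21015763-21015819, plus strand, GRCm38.p6; RefSeq). The motif was in 0.381% of all genes and in 3 of the 39 members of the inflammatory and acute phase lists with a promoter entry. The other 2, Cxcl1 and Nfkbia, did not pass the test. The related form GGACTTTCC was in 1 of the 39 and in 0.4% of all genes.
Icam1: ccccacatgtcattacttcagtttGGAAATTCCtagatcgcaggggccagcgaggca

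Interferon response and MHC class I genes were higher in 11 of 24 tested members, with none lower. Of the 20 detected on both diets 7 were higher, and the other 4 calls, Oas1a, Usp18, Gbp2 and Gbp3, came from members detected on the atherogenic diet alone. Usp18 was not called without atherogenic replicate 1, atherogenic replicate 2 or Western replicate 2 (adjusted p = 0.059, 0.11 and 0.051). The fit of the 6 arrays alone called 4. Oas1a, a sensor of viral RNA, read 7.69, 8.31 and 6.94 in atherogenic livers and 5.81, 5.61 and 5.64 in Western livers, at least 2.01-fold higher (adjusted p = 5.5e-05). Gbp3, a guanylate-binding protein, was at least 2.61-fold higher (adjusted p = 0.0050), Bst2 was 204% (CI 151 to 276, adjusted p = 0.0016), and Tapbp, which loads class I molecules, was 199% (CI 160 to 248, adjusted p = 1.1e-04). Replicate 3 was the lowest of the atherogenic livers in these 4 genes. The GTPase Igtp overlapped, at 9.90, 10.48 and 8.08 against 8.60, 7.80 and 7.92 (260%, adjusted p = 0.031), and Igtp was not called without atherogenic replicate 1 (adjusted p = 0.12), atherogenic replicate 2 (0.20), Western replicate 2 (0.11) or Western replicate 3 (0.10). The number of members called was 5 without atherogenic replicate 1 and 7 without atherogenic replicate 2 or Western replicate 2.

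The promoters of this list were searched for a motif, and promoter sequence did not enter the comparison. Because the list was written as known interferon response genes, a high share of an interferon-type motif is not independent evidence. The interferon-type motif GAAANNGAAA, searched on both strands, was in the promoters of 12 of the 22 list members with an entry (54.5%), against 3.99% of all genes and 3.61% of the tested genes. It did not separate the members that rose: 6 of the 12 with a match were higher, and 4 of the 10 without one. The 5 stretches are from members that rose, Gbp2 by at least 1.56-fold (adjusted p = 0.0060, and 0.052 without atherogenic replicate 1), and capitals mark every match.
Oas1a: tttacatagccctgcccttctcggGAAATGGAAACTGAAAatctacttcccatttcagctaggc
Gbp2: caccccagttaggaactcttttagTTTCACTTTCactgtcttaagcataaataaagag
Gbp3: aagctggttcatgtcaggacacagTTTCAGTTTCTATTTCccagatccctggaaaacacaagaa
Igtp: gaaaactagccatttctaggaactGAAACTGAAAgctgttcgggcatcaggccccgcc
Bst2: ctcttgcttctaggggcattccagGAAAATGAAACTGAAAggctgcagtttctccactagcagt
The stretches lie at chr5:120907506-120907569 (Oas1a, minus strand), chr3:142620580-142620637 (Gbp2, plus), chr3:142559975-142560038 (Gbp3, plus), chr11:58199498-58199555 (Igtp, plus) and chr8:71537563-71537626 (Bst2, minus) of GRCm38.p6. The overlapping pairs in Oas1a, Gbp3 and Bst2 count as 2 matches each.

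Of 26 tested acute phase genes 8 were higher and none was lower, and of the 24 detected on both diets 7 were higher, but without atherogenic replicate 2 the count was 1, Saa3, and the list median moved to 122% of the Western value, against 156% with it. The count was 13 without atherogenic replicate 3, and 5, 5 and 4 without Western replicates 1, 2 and 3, with 1 in the fit of the 6 arrays alone, 3 without the filter and 5 with array weights. Saa3, the serum amyloid A made also by macrophages, read 10.69, 12.85 and 9.55 in atherogenic livers and 7.23, 6.84 and 7.25 in Western livers, or 1517% (CI 641 to 3591, adjusted p = 1.1e-04). Saa2 read 12.03, 14.90 and 10.34 against 8.52, 8.74 and 9.29 (1191%, adjusted p = 0.0078), and without atherogenic replicate 2 it was 504% (adjusted p = 0.070). In control livers Saa2 averaged 11.11, above all Western livers and above 1 atherogenic liver.

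Orm2, an acid glycoprotein of the acute phase, read 9.33, 14.36 and 8.75 in atherogenic livers and 7.19, 7.47 and 7.79 in Western livers. It was 1006% (CI 266 to 3808, adjusted p = 0.014), and 294% without atherogenic replicate 2 (adjusted p = 0.090). The interval rests on a spread shared by all diets, while the standard deviation of Orm2 was 3.09 in atherogenic and 0.301 in Western livers. Lcn2, the iron-binding lipocalin, showed the same order, 9.75, 14.41 and 8.23 against 7.20, 6.57 and 7.01, and its adjusted p in limma lay just above the threshold of 0.05. It was called without atherogenic replicate 3 (3565%, adjusted p = 0.015). The highest value of each of these 4 genes was that of replicate 2, and the other atherogenic livers still lay above every Western liver.

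The neutrophil markers S100a8 and S100a9 were seen in that liver alone. S100a8 read 3.14, 10.16 and 3.06 in atherogenic livers, 2.94, 2.94 and 3.09 in Western livers and no more than 3.88 in control livers. S100a9 read 2.68, 8.73 and 2.92 in atherogenic livers and 2.42, 2.42 and 2.56 in Western livers. The summed intensity of the 8 neutrophil markers was 45.3, 1649 and 46.0 in atherogenic livers and 42.7 to 44.5 in Western livers. That sum contains S100a8 and S100a9 and is not separate evidence. No marker of the list had a diet mean at the detection level. Their part in the acute phase result was not tested. Macrophage and MHC class II counts without atherogenic replicate 2 were 11 of 13, 14 of 14 and 7 of 7.

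**Figure D5:**
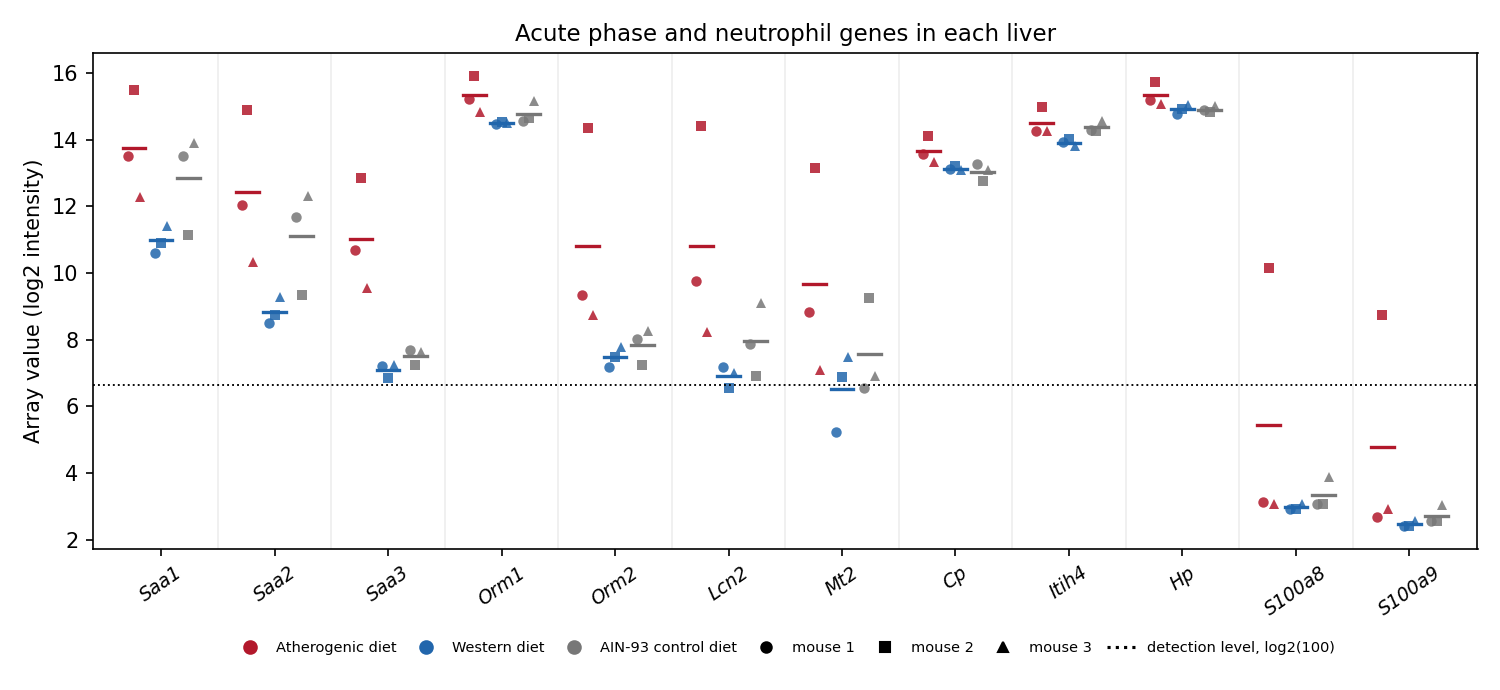
Log2 intensity of 10 acute phase genes and the neutrophil genes S100a8 and S100a9 in each liver, atherogenic (red), Western (blue) and AIN-93 control (grey) from left to right, with marker shapes for mice 1 to 3. The square of the atherogenic group, replicate 2, is the highest point of every gene shown.

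Complement genes were higher in 7 of 18 tested members and lower in 1, Masp2 (78.1%, adjusted p = 0.0043), with 4 higher without atherogenic replicate 2 or Western replicate 3, in the fit of the 6 arrays alone or after median centring. Of the 17 detected on both diets 6 were higher. Mbl2, a lectin that starts the cascade, was tight within diets, at 13.62, 13.65 and 13.60 in atherogenic and 12.90, 12.73 and 12.54 in Western livers, or 187% (CI 155 to 225, adjusted p = 5.5e-05). Factor B (Cfb) was 183% (CI 148 to 226, adjusted p = 3.1e-04), and properdin (Cfp), which steadies its convertase, was at least 2.12-fold higher (adjusted p = 2.7e-04).

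Of 28 tested members of the glutathione and NRF2 list, all detected on both diets, 8 were higher and 2 lower. Over all genes detected on both diets 9.68% were higher and 6.93% lower, so the lower count was near the general share. Among its 17 glutathione transferases 5 were higher (Gsta2, Gsta4, Gstm1, Gstm3 and Mgst3), 2 were lower (Gstk1 and Gstz1) and 10 did not pass. Gsta2 was not called without atherogenic replicate 1 (292%, adjusted p = 0.059). Gstm3 read 11.28, 11.10 and 10.54 in atherogenic livers and 7.05, 7.35 and 8.38 in Western livers, or 1037% (CI 589 to 1824, adjusted p = 5.8e-06). Gsta4, which conjugates the lipid peroxidation product 4-hydroxynonenal, was 405% (CI 276 to 595, adjusted p = 2.4e-05), Gstm1 287% (CI 221 to 372, adjusted p = 7.6e-06) and glutathione synthetase (Gss) 204% (CI 145 to 289, adjusted p = 0.0043). Gstk1, a transferase of mitochondria and peroxisomes, was lower at 65.2% (adjusted p = 0.0068), and not called without Western replicate 3 (74.9%, adjusted p = 0.064). Members of the Gstm and Gsta families are alike in sequence, and probes may share signal among them. The lower count was 1 without atherogenic replicate 1 or Western replicate 2, 0 without Western replicate 3 or in the fit of the 6 arrays alone, and 5 without Western replicate 1.

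The xenobiotic P450 list had 2 of 22 tested members higher and 5 lower. Over all genes tested 11.9% were higher and 6.95% lower, so the higher count was near the general share. Nr1i2, the receptor PXR, was 174% (CI 130 to 234, adjusted p = 0.0084), whereas Cyp2c54 was 42.9% (CI 30.7 to 59.8, adjusted p = 8.4e-04). Cyp2j5 (69.3%), Sult2a8 (65.0%), Cyp2c50 (76.7%) and Cyp2e1 (81.2%) were also lower. Cyp3a25 was the other higher member (134%, adjusted p = 0.0497), and Cyp3a13 did not pass (136%, adjusted p = 0.053). Cyp3a11, a major target of PXR, differed little (111%, CI 80.2 to 154, adjusted p = 0.69). The higher count was 1 in the fit of the 6 arrays alone and without any array except atherogenic replicate 2. The lower count was 3 without atherogenic replicate 1, Western replicate 2 or Western replicate 3, and 2 in the fit of the 6 arrays alone.

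Cell cycle genes were higher in 5 of 12 tested members, with none lower. Of the 7 detected on both diets 2 were higher, Mcm7 and Tubb5, and the other 3 calls, Ccnd1, Mcm6 and Cdc20, came from the 5 members detected on the atherogenic diet alone. Ccnd1, the G1 cyclin, read 8.63, 8.86 and 7.98 in atherogenic livers and 6.05, 5.44 and 6.27 in Western livers, at least 3.59-fold higher (adjusted p = 8.2e-06). Cdc20 and the replication helicase gene Mcm6 were at least 1.08-fold and 1.10-fold higher, both undetected in all Western livers, and Mcm7, of the same helicase, was 140% (adjusted p = 0.014, and 0.052 and 0.084 without atherogenic replicate 1 or Western replicate 2). Cdkn1a, the inhibitor p21, read 7.82, 8.36 and 7.73 against 4.72, 6.23 and 7.08 and did not pass (adjusted p = 0.12). The count was 3 without atherogenic replicate 1 or Western replicate 2, and 13 of 33 without the filter.

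Male-biased liver genes were lower in 6 of 13 tested members, with none higher, and in 3 in the fit of the 6 arrays alone. Of these 6, Cyp7b1 and Slco1a1 were already counted as lower in the lists of bile acid synthesis and of bile salt sensing and transport. Hsd3b5, a steroid dehydrogenase of male mouse liver, read 12.45, 10.48 and 11.95 in atherogenic livers and 13.50, 13.21 and 12.95 in Western livers, or 33.1% (CI 21.2 to 51.8, adjusted p = 0.0011). Serpina12, the secreted protein vaspin, was 25.5% (CI 13.1 to 49.6, adjusted p = 0.0046) and Ugt2b1 51.0% (CI 40.9 to 63.6, adjusted p = 1.5e-04). Replicate 2 had the lowest Hsd3b5 and Serpina12 values of the atherogenic livers. Of the female-biased list 1 gene was tested, the carrier Slco1a4 described above.

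Endoplasmic reticulum chaperones were a list without a call, 0 of 18 tested by limma, with 0 at an unadjusted p below 0.05. Of the apolipoprotein and lipoprotein assembly list, 1 of 17 was higher, Tm6sf2, a gene of lipoprotein lipidation (229%, CI 170 to 310, adjusted p = 4.0e-04), and Sar1b (68.0%, adjusted p = 0.0017) and Mttp (71.3%, adjusted p = 0.026), which assemble and carry lipoproteins, were lower. Mttp was not called without atherogenic replicate 2 (adjusted p = 0.13) or Western replicate 3 (0.15), and without Western replicate 1 the list had 5 lower members. Over all genes detected on both diets, 9.68% were higher and 6.93% lower. Of 41 tested ribosomal protein genes, all detected on both diets, 4 were higher, at 122% to 132% of the Western value. They were Rpl13a, Rpl35, Rps20 and Rps4x. That count is near the share over all genes detected on both diets (9.68%). It was 0 without Western replicate 2, and 1 without atherogenic replicate 1 or Western replicate 3. Without atherogenic replicate 2 or 3 it was 2, and without Western replicate 1 it was 7.

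Several of the largest differences lay outside these lists. Tmem141, a membrane protein gene, was tight within diets, at 9.99, 9.86 and 9.75 in atherogenic livers against 7.72, 7.49 and 7.65 in Western livers (474%, CI 384 to 584, adjusted p = 1.3e-09). Hsd17b6, a hydroxysteroid dehydrogenase, was 621% (CI 263 to 1465, adjusted p = 0.0034), and Ly6e, an interferon-inducible surface protein, was 543% (CI 316 to 933, adjusted p = 1.1e-04). Mup10, a major urinary protein with near-identical paralogs, read 8.37, 7.64 and 8.05 in atherogenic and 11.77, 11.31 and 10.82 in Western livers (10.3%, CI 6.15 to 17.3, adjusted p = 3.1e-06). Tsc22d1, a transcription regulator, was 16.4% (CI 9.59 to 28.0, adjusted p = 5.5e-05), the carbonic anhydrase Car3 22.0% (CI 10.9 to 44.5, adjusted p = 0.0032) and Dio1, the deiodinase that makes active thyroid hormone, 26.1% (CI 15.8 to 43.1, adjusted p = 5.2e-04).

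Set beside control, the called genes did not lie on 1 side. Of the 726 genes that were higher on the atherogenic diet, the control mean lay below the Western mean in 160, between the diets and nearer Western in 358, between them and nearer atherogenic in 176, and above the atherogenic mean in 32. Of the 425 lower genes, the control mean lay above the Western mean in 93, nearer Western in 157, nearer atherogenic in 128, and below the atherogenic mean in 47. In 12 of 13 lower mitochondrial oxidation genes control lay on the atherogenic side, and in all 7 class II genes it lay nearer the Western mean. These positions share the atherogenic and Western arrays with the calls and are a description.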

How the data were processed

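Liver RNA was hybridised to Affymetrix Mouse 430 2.0 arrays, 1 per mouse. The authors deposited log2 intensities, background-corrected and normalized between arrays by GCRMA, which entered without further scaling. GCRMA compresses values near the lowest one (2.29), which hides spread between mice there, so such p-values may be too small. The number of arrays limits the precision.

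Probes that list 1 gene symbol (34958 of 45101) entered, and the 8855 with a mean above log2(100) on the atherogenic or the Western diet were averaged into 6112 genes. Limma 3.58.1 (R 4.3.3) was fitted to all 27 arrays with 1 mean per diet, and p for atherogenic minus Western was adjusted by the Benjamini-Hochberg method over these genes, with a threshold of 0.05. Intervals and p rest on a spread pooled over all diets, so they may be too narrow or too small where the atherogenic livers varied more. A percent is 2 to the power of the log2 difference, times 100. Where a whole diet was undetected, a bound (at least so many fold) was taken as the mean of the other diet over log2(100), beside the p of the fitted difference. Genes detected on 1 diet passed the filter only through the diet where they are high.

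The comparison and the 31 gene lists, written from textbook knowledge, were chosen with earlier results of these data known. Named genes are up to 15 called increases and 15 decreases with no overlap, largest first after raising values to the detection level, the key genes of each list, up to 8 called members per list, and members that make up a count of 5 or fewer. Listed genes that did not pass are named with values. S100a8, S100a9 and the genes of the closing observations were taken up after their values were seen. RefSeq held a promoter for 143 of 182 named genes. Alternatives were other filters, priors, array weights, scalings and probe rules, a fit of 6 arrays, a block on the replicate number, and each array left out in turn. Tables and plots used pandas 2.3.3, numpy 2.4.6 and matplotlib 3.10.9 on Python 3.11.15.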

Additional observations from a re-analysis of the deposited data

How the results depend on the processing

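The fit of all arrays called 1151 genes, and a fit of the 6 arrays alone called 465 (314 higher, 151 lower), 436 of which were among the 1151. Median centring gave 640 lower genes and quantile normalization 650. Leaving out 1 array gave 751 to 1226 changed genes (482 to 810 higher, 269 to 416 lower), the fewest without Western replicate 3. All other alternatives stayed within 1.5 times of each count. No called gene changed sign except 8 without the filter, 8 with all probes and 1 with the brightest probe. Same-numbered arrays of the 2 diets did not deviate together (correlations of -0.07, -0.08 and -0.04). With 3 arrays per diet these values cannot settle whether the numbers pair mice, and the labels do not say. With the replicate block 739 genes were higher and 436 lower. Abca1 turned to 93.6% without the filter and with all probes of the gene, and Scd1 to 94.4% with the highest probe, none of them called. The causes were not tested. Genes near the detection level and 3 mice per diet limit what small differences can be seen.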

Other observations

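Some genes outside the lists had a large fitted difference on a low level, and they were picked after their values were seen. Ptgds, the lipocalin-type prostaglandin D2 synthase, read 9.29, 7.59 and 6.80 in atherogenic livers, against 2.43, 2.37 and 2.29 in Western livers and a control mean of 2.34. It was at least 2.37-fold higher. Dct, known as an enzyme of melanin synthesis, read 3.58, 4.06 and 3.26 in atherogenic livers and 7.81, 8.07 and 8.05 in Western livers, with a control mean of 8.53, at least 2.51-fold lower. Adgrv1, an adhesion receptor gene, read 4.64, 3.79 and 4.22 in atherogenic and 7.53, 8.08 and 7.62 in Western livers, at least 2.14-fold lower. Tmem86a, which encodes a lysoplasmalogenase, read 8.88, 7.91 and 8.71 in atherogenic and 6.45, 6.14 and 6.64 in Western livers, at least 3.62-fold higher.

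Over all genes on the array, 10 were above the detection level and at least 4-fold above each of the 8 other atherogenic, Western and control arrays in atherogenic replicate 2 alone. They were S100a8, S100a9, Orm3, Orm2, Lcn2, Mt1, Mt2, Cxcl1, Saa2 and Saa3. The same count was 1 in atherogenic replicate 1, 1 in control replicate 3, and 0 in each of the 6 others. Cxcl1, a chemokine that draws neutrophils, averaged 6.26, 10.38 and 6.58 over all its probes, detected or not, in atherogenic livers and 5.44, 5.94 and 5.95 in Western livers. Mt2, a metallothionein, read 8.83, 13.14 and 7.09 in atherogenic livers and 5.24, 6.88 and 7.47 in Western livers. Its diets overlapped, and its call (adjusted p = 0.047) was lost when any of the 6 arrays was left out (0.057 to 0.34).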
